A study of Homo sapiens with 12 samples.

Results

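The cells described are the interferon-responding cells of SCC1 and SCC25, which are established lines of head and neck squamous cell carcinoma (HNSCC). Members were chosen by raw counts of 3 genes: a cell was taken when it held 1 or more unique molecular identifiers (UMIs, each standing for 1 captured mRNA molecule) of each of IFIT1, IFIT2 and IFIT3, and such a cell is called triple-positive. Of the 14190 SCC1 and SCC25 cells, 7098 were members (4531 of SCC1 and 2567 of SCC25), out of 23914 cells in the whole series. They were set against cells of the same sample with 0 UMIs of all 3 genes, called triple-negative, of which SCC25 had 1378 and SCC1 only 23. The remaining 5691 cells of both lines held UMIs of 1 or 2 of the genes.

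The study profiled the established HNSCC lines SCC1, SCC6 and SCC25 by scRNA-seq (10x Genomics Chromium, 3′ chemistry) after 5 days of daily 100 nM cetuximab, an antibody against the growth factor receptor EGFR, or of PBS (untreated). Each line and treatment had 2 replicate samples. Nothing in the labels says whether these were separate cultures, so p-values measure only the spread between these samples, which may be technical. Where groups of cells were compared within samples, this is the spread of their difference from sample to sample. For the gene tests that spread was estimated with information shared between genes and over both lines. A standard error (SE) given below comes from that test and is not the gene's own spread between the samples of a line. No interferon was added to any sample, and both treatment groups of a line were unmodified cells of that line.

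Interferons are secreted proteins that cells release when they sense foreign or misplaced nucleic acid. Type I interferons (such as IFNB1) and type III interferons (the IFNL genes) bind different receptors, and both lead through the kinases JAK1 and TYK2 to a complex that holds STAT2 and IRF9 and binds interferon-stimulated response elements in the promoters of interferon-stimulated genes. IFIT1, IFIT2 and IFIT3 lie next to each other in the genome and encode RNA-binding proteins that restrict viral translation. They are among the most sharply induced genes of this response in epithelial cells.

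Promoter sequences are shown for IFIT1 and IFIT3, which chose the cells, and for ISG15, RSAD2 and HERC5, whose levels are described below. All come from RefSeq (GRCh38.p14), and each stretch of 120 bases runs from 160 to 41 bases before the start site on the plus strand, which is the strand of all these genes. Capitals mark every match to the core letters of the interferon-stimulated response element, which are GAAA, 2 bases of any kind and GAAA again, or TTTC, 2 bases and TTTC on the opposite strand. Overlapping matches run together in ISG15 and HERC5. Only stretches that hold a match are shown. RSAD2 and IFIT3 each have another RefSeq start site that is not shown. The sequence searched at that other site held 0 matches for RSAD2 and 2 for IFIT3.
IFIT1, chr10:89392463-89392582: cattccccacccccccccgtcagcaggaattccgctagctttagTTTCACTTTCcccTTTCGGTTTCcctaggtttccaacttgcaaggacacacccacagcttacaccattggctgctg
IFIT3, chr10:89327837-89327956: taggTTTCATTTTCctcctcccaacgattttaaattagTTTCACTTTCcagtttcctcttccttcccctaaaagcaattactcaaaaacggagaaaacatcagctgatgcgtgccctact
ISG15, chr1:1013337-1013456: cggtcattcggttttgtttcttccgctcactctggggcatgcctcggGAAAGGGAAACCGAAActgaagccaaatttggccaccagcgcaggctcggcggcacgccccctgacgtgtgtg
RSAD2, chr2:6877617-6877736: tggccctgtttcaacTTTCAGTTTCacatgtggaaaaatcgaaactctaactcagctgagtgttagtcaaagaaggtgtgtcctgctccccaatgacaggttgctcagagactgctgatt
HERC5, chr4:88456959-88457078: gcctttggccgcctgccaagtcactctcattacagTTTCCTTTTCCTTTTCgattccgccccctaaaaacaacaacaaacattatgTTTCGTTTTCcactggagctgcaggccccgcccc

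These letters were found, on either strand, in 1061 (3.02%) of the 35116 RefSeq windows, each the 250 bases before a start site, and in 1014 (3.71%) of the 27305 genes with a window. Of the 47 other listed genes for antiviral effectors and ISG15 conjugation, 38 had a window and 24 of them (63.2%) held the letters. The HLA class I list had 8 of 15 and the T-cell chemokine list had 2 of 3. None of 11 S-phase genes had a match, which cannot be told from the 3.71% over all genes with so few genes. A match describes the sequence only and is not evidence of binding.

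The files held between 57057402 and 112170073 UMIs per sample in these 8 samples, with a median of 31947.5 to 54864 per cell. Any 2 of the 8 samples shared 1 to 13 cell barcodes. The markers of squamous epithelium were expressed in both lines, whereas CD3E, PTPRC and LYZ (leukocytes), PECAM1 (endothelium), ALB (liver) and HBB (red blood cells) were at or near 0. Not all markers of other cell types were: in triple-positive cells CD14 (monocytes) was at 9.25 to 14.3 CPM (UMIs of a gene or list scaled to 1000000 UMIs in all) in SCC1 and 1.74 to 5.01 CPM in SCC25, and the fibroblast collagen COL1A2 was at 4.83 to 15.2 CPM in SCC1 and 1.61 to 2.87 CPM in SCC25. Their part in the results was not tested. LUM, a collagen-binding proteoglycan of fibroblasts, had UMIs in 9.64 to 41.9% of SCC25 cells thinned to 15000 UMIs. Cells called here "interferon-responding" are named from the 3 genes of the rule, and the genes below were measured separately from them.

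The share of triple-positive cells was higher with cetuximab than with PBS in both lines. In SCC1 the members were 1011 of 1263 and 1219 of 1666 cells with PBS (80.0 and 73.2%), and 952 of 961 and 1349 of 1380 with cetuximab (99.1 and 97.8%). In SCC25 they were 257 of 2318 and 610 of 2576 cells with PBS (11.1 and 23.7%), against 993 of 1999 and 707 of 2027 with cetuximab (49.7 and 34.9%). The treatments did not overlap in either line. SCC6 had 80 such cells of 9724, at sample medians of 24078.5 to 50156 UMIs per cell. Free RNA taken up by droplets was not measured in these tables, and its part in the shares was not tested.

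Because deeper cells have more chances to show all 3 genes, each cell was also thinned to 15000 UMIs, which left out 23 to 48 shallower cells per SCC1 sample and 34 to 130 per SCC25 sample. Thinned shares in SCC1 were 49.2% (95% exact binomial interval 46.4 to 52.1) and 34.6% (32.3 to 36.9) with PBS, and 94.3% (92.7 to 95.7) and 85.7% (83.8 to 87.6) with cetuximab. In SCC25 they were 5.44% (4.53 to 6.47) and 10.7% (9.52 to 11.96) with PBS, and 28.9% (26.8 to 30.9) and 13.9% (12.5 to 15.5) with cetuximab. The intervals cover counting error only. The gap between the SCC25 cetuximab replicates was wider than the gap between the second of them and the nearer PBS sample.

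Group means of the thinned share were 41.9% ± 10.4 (SD, n = 2) with PBS and 90.05% ± 6.08 with cetuximab in SCC1, and 8.07% ± 3.73 and 21.4% ± 10.5 in SCC25. Over both lines the share was 30.7 percentage points higher with cetuximab, by 48.2 points in SCC1 and 13.3 points in SCC25. The exact two-sided permutation test within lines gave p = 0.0556, the smallest value that its 36 arrangements allow, so p under 0.05 could not be reached. Without SCC25 cetuximab replicate 1 the SCC25 difference was 5.88 points. As raw shares the differences were 21.8 points in SCC1 and 24.9 points in SCC25, so the order of the lines depended on thinning.

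**Figure D1:**
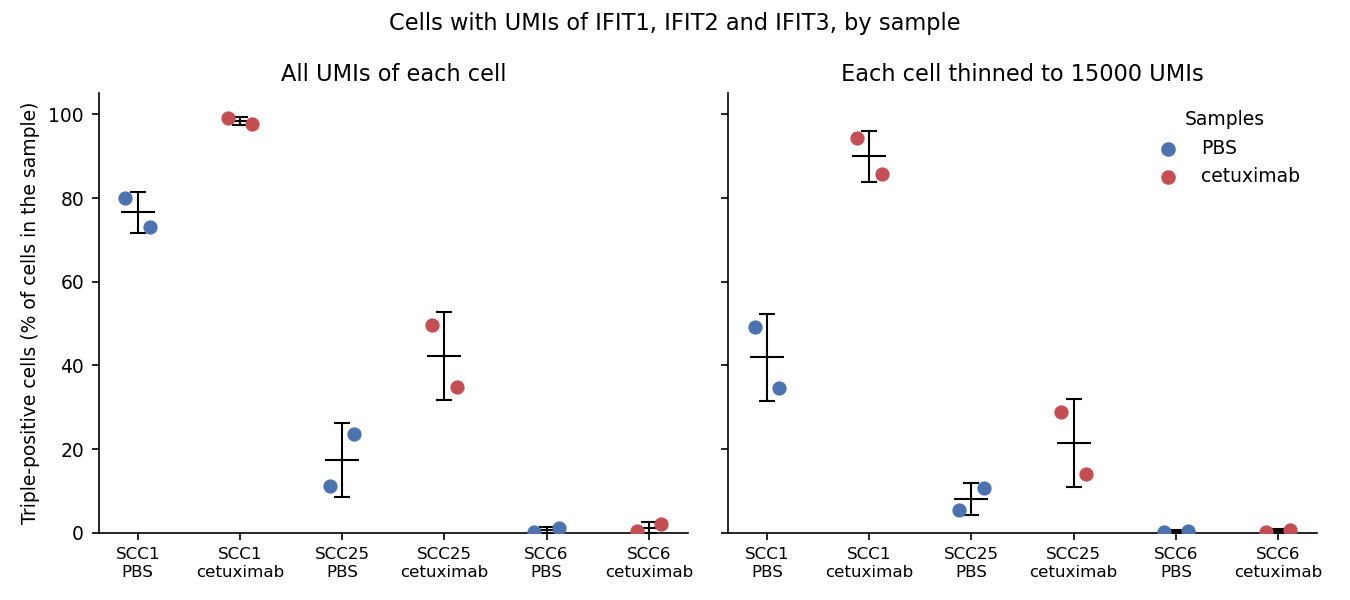
Share of triple-positive cells (percent, vertical axis) in each sample of SCC1, SCC6 and SCC25, from all UMIs (left) and after thinning each cell to 15000 UMIs (right). Points are samples and black bars are the mean ± SD of 2 replicates. Thinned shares were 85.7% or more in the SCC1 cetuximab samples and 49.2% or less in the SCC1 PBS samples, while SCC6 stayed near 0.

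The genes of the rule are given as a description only, since they chose the cells. A triple-positive SCC1 cell held on average 9.58 and 7.74 UMIs of IFIT1 in the PBS samples and 44.3 and 33.2 in the cetuximab samples. In SCC25 the same mean was 3.54 and 6.74 with PBS and 8.65 and 10.6 with cetuximab. The highest count in a single cell was 599 UMIs of IFIT2, in SCC1 cetuximab replicate 1. IFIT3 was found in most cells and IFIT2 in fewest in most samples, and among cells with 2 of the 3 genes the missing one was IFIT2 in 49.6 to 87.5%.

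At the threshold itself, few members held exactly 1 UMI of each gene, 17 to 48 per SCC25 sample and 0 to 9 per SCC1 sample. Many more SCC25 members held a single UMI of at least 1 of the genes. Those with 2 or more UMIs of each gene were 109 of 257 and 283 of 610 with PBS, and 607 of 993 and 313 of 707 with cetuximab. In SCC25 the members with exactly 1 UMI of each gene had 5785, 4140, 11443 and 5725 CPM of the other listed interferon-stimulated genes (PBS replicates 1 and 2, then cetuximab replicates 1 and 2). Cells just outside, with 2 of the 3 genes, had 6220, 5438, 15425 and 7602 CPM in the same samples.

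The level of other interferon-stimulated genes followed the number of IFIT genes in steps. The measure was the summed UMIs of the 47 other listed genes in cells thinned to 15000 UMIs. In SCC25 PBS replicate 1 it averaged 52.6, 78.6, 111 and 153 UMIs in cells with 0, 1, 2 and 3 of the IFIT genes, and in cetuximab replicate 1 it averaged 163, 212, 290 and 390. Both series rose at each step, but a triple-negative cell of the cetuximab replicate held more of these UMIs than a triple-positive cell of the PBS replicate. SCC25 PBS replicate 2 (58.7 to 177 from 0 to 3 genes) and cetuximab replicate 2 (82.8 to 249) showed the same steps. Triple-negative cells of SCC25 were therefore low for these genes relative to their own sample and not at 0, and SCC6 cells without IFIT UMIs held 11 to 14.

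In SCC1 the PBS samples showed the same order. Cells of SCC1 PBS replicate 1 averaged 132, 179, 207 and 248 UMIs of the 47 genes with 0 to 3 IFIT genes, and those of replicate 2 averaged 97.1, 123, 145 and 172. Triple-positive cells of the cetuximab replicates averaged 428 and 314. Cells with 1 and 2 of the genes averaged 177 and 315 in cetuximab replicate 1 (9 and 43 cells), and 149 and 222 in replicate 2 (23 and 164 cells). Only 1 and 5 cells of these replicates held 0 of the genes, too few to place. Across cells within a sample, the Spearman correlation of IFIT UMIs with UMIs of the 47 genes was 0.504 to 0.600 in SCC1 (938 to 1640 cells), 0.438 to 0.612 in SCC25 (1920 to 2503 cells) and 0.118 to 0.245 in SCC6. The cells behind each value share a library, and all were thinned to the same depth.

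**Figure D2:**
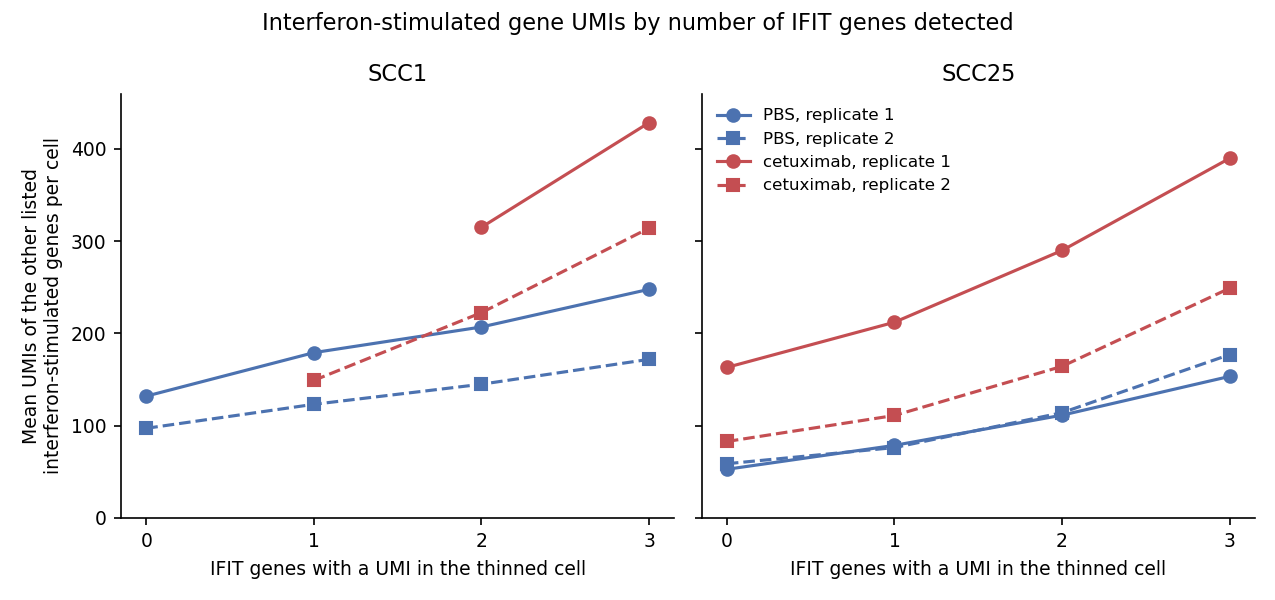
Mean UMIs per thinned cell of the 47 other listed interferon-stimulated genes (vertical axis) against the number of IFIT1, IFIT2 and IFIT3 with a UMI (horizontal axis), 1 line per sample, points with few cells left out. The lines shown rise from left to right, and SCC25 cetuximab replicate 1 runs above the other SCC25 samples, from 163 to 390.

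Genes that went with the state were tested on UMIs summed per sample and class, with edgeR's quasi-likelihood test, the sample as a block and Benjamini-Hochberg adjustment over 15633 genes. IFIT1, IFIT2 and IFIT3 were left out. In SCC25, 3245 genes (20.8%) passed an adjusted p of 0.05, 2040 of them (13%) higher and 1205 (7.71%) lower in triple-positive cells, and the median log2 difference over all genes was 0.03. Triple-positive cells were also deeper than triple-negative cells in every SCC25 sample (medians 34230 against 30266, 43457.5 against 34584, 43736 against 30597 and 50025 against 39297.5 UMIs). In cells matched for depth within each sample, 1319 of the 2040 higher and 946 of the 1205 lower genes kept their call. Most groups below are also given with their count in depth-matched cells, where 23.6% of 12458 genes were called, 12.1% higher and 11.5% lower. Levels are in CPM of the class, and 4 values stand for PBS replicates 1 and 2 and then cetuximab replicates 1 and 2.

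Interferon ligand mRNA was found in few cells, and the ligands differed in which cells held it. IFNL1, a type III interferon, had UMIs in 69 SCC25 cells, of which 65 were among the 2567 triple-positive cells (2.53%) and none among the 1378 triple-negative cells, which allows a share of up to 0.218% with a UMI and sets no limit on cells that express the gene. The triple-negative cells were also shallower, as given above. These triple-positive cells numbered 10 and 20 in the PBS replicates and 7 and 28 in the cetuximab replicates, and 1 cell held 58 UMIs. IFNL2 and IFNL3, its neighbours of the same family, had UMIs in 14 (0.545%) and 18 (0.701%) triple-positive SCC25 cells, and IFNB1 in 7 (0.273%). IFNE, an epithelial type I interferon, was seen in the most SCC25 cells, 228, of which 75 were triple-positive (2.92% of that class), 27 triple-negative (1.96%) and 126 held UMIs of 1 or 2 of the IFIT genes. IFNK had UMIs in 5 SCC25 cells, none of them triple-positive.

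In SCC1 the ligand seen in most cells, apart from IFNE, was IFNB1, the type I interferon most cell types can make. It had UMIs in 53 of 4531 triple-positive cells (1.17%), 22 and 16 in the cetuximab replicates and 8 and 7 in the PBS replicates. None of the 23 triple-negative SCC1 cells had any, which allows a share of up to 13.0% and sets no useful limit. IFNE was seen in 69 triple-positive cells (1.52%) and IFNL1 in 11 (0.243%). IFNG and IFNW1 had no UMI in either line, and IFNA1 had 1 UMI in 1 SCC25 cell.

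Most receptor genes were moderately higher in triple-positive cells. In SCC25, 5 of 6 receptor genes rose in triple-positive cells, with a list median of 0.38 on the log2 scale, and the same number rose in depth-matched cells. IFNAR1 and IFNAR2, the chains of the type I receptor, rose by 0.35 ± 0.10 (SE) and 0.56 ± 0.13, and IL10RB, a chain of the type III receptor, rose by 0.51 ± 0.13. IFNLR1, the chain that is specific to type III interferons, was at 4.16, 2.70, 4.67 and 4.10 CPM in triple-positive and 4.23, 2.93, 4.26 and 4.22 CPM in triple-negative cells. Its log2 difference was -0.06 ± 0.17 (adjusted p = 0.85), and its levels overlapped.

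Of the JAK-STAT genes, 5 of 7 rose in SCC25 (4 of 6 in depth-matched cells), with a median of 0.73. STAT2, a transcription factor of interferon signalling, rose by 1.42 ± 0.10 on the log2 scale, and IRF9, its DNA-binding partner, by 0.73 ± 0.13. The kinase JAK1 was at 0.06 ± 0.09 (adjusted p = 0.68).

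Interferon regulatory factors, which carry the signal from sensors to interferon genes or act downstream of the receptor, split in the same way. In SCC25, 4 of 6 rose (also 4 in depth-matched cells), with a median of 0.29. IRF7, which amplifies interferon production, was at 50.9, 59.8, 138 and 68.1 CPM in triple-positive and 22.5, 27.4, 69.0 and 28.3 CPM in triple-negative cells (1.15 ± 0.09). IRF1 rose by 1.02 ± 0.10, and its 4 triple-positive levels (67.6 to 83.7 CPM) lay above all 4 triple-negative levels (32.4 to 41.1 CPM). IRF3, which is activated by phosphorylation rather than by induction, was at 0.12 ± 0.09 (adjusted p = 0.37).

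Sensors of foreign nucleic acid rose in 8 of 13 cases in SCC25 (7 of 11 in depth-matched cells), with a median of 0.67. DDX58, the RNA sensor also known as RIG-I, was at 15.7, 24.0, 18.1 and 19.9 CPM in triple-positive and 1.51, 2.80, 2.56 and 3.38 CPM in triple-negative cells. The levels of the classes were far apart in each sample (3.04 ± 0.14, an 8.23-fold difference). IFIH1, the RNA sensor MDA5, rose by 2.26 ± 0.12, the DNA sensor AIM2 by 1.70 ± 0.10, and TMEM173, the adaptor STING, by 0.67 ± 0.09. MAVS and TBK1, the adaptor and kinase below the RNA sensors, were at -0.24 ± 0.10 (adjusted p = 0.089) and 0.12 ± 0.11 (adjusted p = 0.49), and the DNA sensor CGAS was at 0.11 ± 0.09 (adjusted p = 0.45).

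Antiviral effectors rose in most cases. In SCC25, 39 of 42 rose and none fell, with a median of 1.35, and 39 rose in depth-matched cells. RSAD2 (viperin, which makes a chain-terminating nucleotide) was at 18.5, 13.8, 36.7 and 22.0 CPM in triple-positive and 0.325, 0.267, 1.70 and 0.422 CPM in triple-negative cells. OASL, a relative of the RNA-sensing OAS enzymes, was at 317, 475, 133 and 327 CPM against 9.07, 8.73, 7.67 and 6.33 CPM. For both genes every triple-positive level lay above every triple-negative level. The differences were 5.62 ± 0.21 for RSAD2 and 5.41 ± 0.13 for OASL, the highest of all genes named by rule in SCC25. The triple-negative sums held 24581110, 15000127, 1173634 and 7106278 UMIs of all genes, so the size of the RSAD2 difference rests on few counts in that class.

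Some effectors separated the classes within samples more clearly than across them. IFI6, a mitochondrial and endoplasmic reticulum protein, was at 217, 167, 1214 and 366 CPM in triple-positive and 46.5, 37.3, 341 and 99.8 CPM in triple-negative cells (2.03 ± 0.08). IFI27 was at 3271, 2637, 10651 and 4481 CPM against 1241, 1029, 4393 and 2025 CPM (1.30 ± 0.07). In cetuximab replicate 1 the triple-negative cells held more IFI27 than the triple-positive cells of either PBS replicate, so the classes separated within samples and not across them. CMPK2, a mitochondrial nucleotide kinase that neighbours RSAD2, rose by 3.79 ± 0.18, and IFI44L by 2.70 ± 0.11.

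MX1 and MX2, dynamin-like antiviral GTPases, were among the 3 effectors that did not pass in SCC25, and they had almost no UMIs in either class. MX1 was at 0.0700 CPM in the triple-positive cells of PBS replicate 2 and at 0 in the other class sums, and MX2 was at 0 in all. SCC1 expressed both, as described below.

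All 5 genes of ISG15 conjugation rose in SCC25, with a median of 2.07, and all 5 rose in depth-matched cells. ISG15, a ubiquitin-like protein, was at 1716, 1524, 3735 and 1835 CPM in triple-positive and 382, 317, 1025 and 483 CPM in triple-negative cells (2.07 ± 0.08). HERC5, the ligase that attaches ISG15 to new proteins, was at 62.8, 28.6, 24.9 and 22.2 CPM against 2.24, 0.800, 2.56 and 0.704 CPM (4.83 ± 0.15). Every triple-positive level of both genes lay above every triple-negative level. USP18, which removes ISG15 and dampens the receptor, rose by 1.71 ± 0.11, and 3 of 6 feedback inhibitors rose in all.

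**Figure D3:**
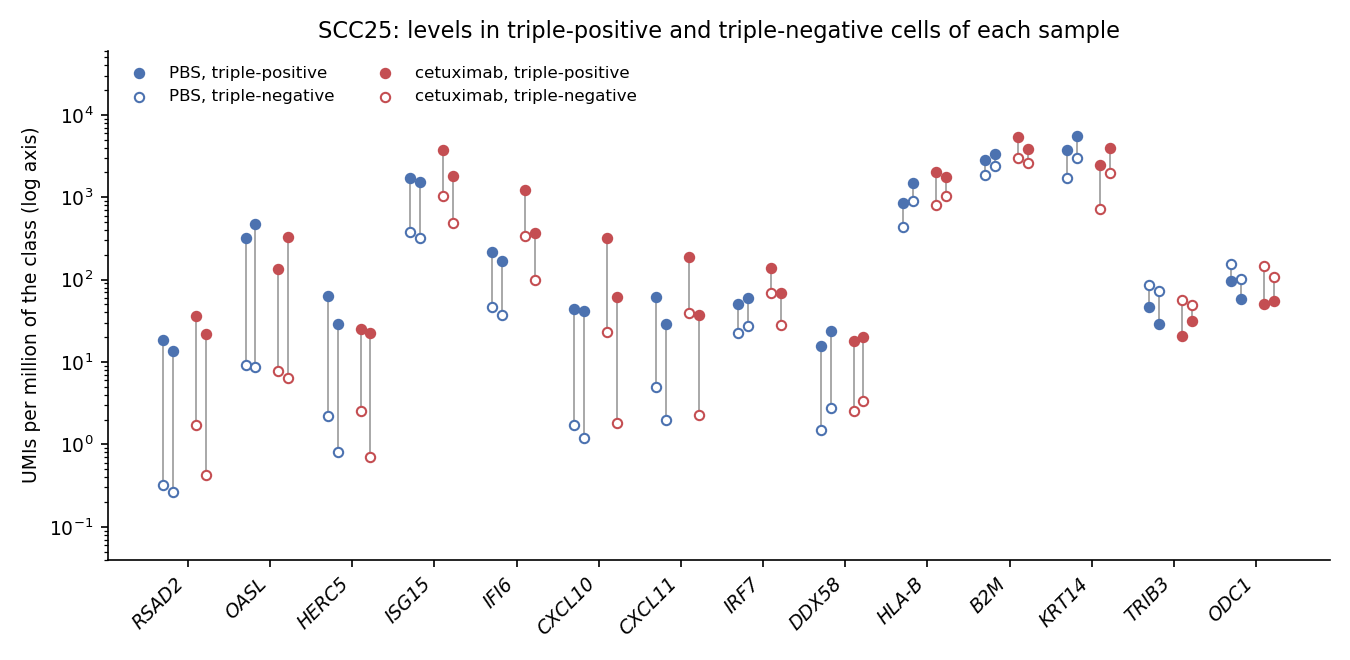
CPM (log axis) of 14 genes in SCC25, with triple-positive cells as filled and triple-negative cells as hollow points, PBS in blue and cetuximab in red, 4 samples each. RSAD2, OASL and HERC5 show filled points far above hollow ones (OASL 133 to 475 against 6.33 to 9.07 CPM), B2M shows a small gap, and TRIB3 and ODC1 have filled points below hollow ones of the same sample.

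The 4 listed T-cell chemokines all rose in SCC25, with a median of 3.48 (3 of 3 tested in depth-matched cells). CXCL10 was at 44.2, 41.7, 318 and 61.1 CPM in triple-positive and 1.71, 1.20, 23.0 and 1.83 CPM in triple-negative cells (4.64 ± 0.14). CXCL11 rose by 3.44 ± 0.14 and CCL5 by 3.51 ± 0.15. After thinning, 24.4, 14.2, 64.1 and 19.1% of triple-positive cells had CXCL10 UMIs, against 2.85, 3.36, 39.9 and 4.14% of the other SCC25 cells. Cetuximab replicate 1 thus had CXCL10 in more of its other cells than the remaining samples had in triple-positive cells.

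HLA class I genes, which load and present peptides to CD8 T cells, rose in 15 of 17 cases in SCC25 (14 in depth-matched cells), with a median of 0.62. HLA-B was at 845, 1484, 2049 and 1749 CPM in triple-positive and 434, 888, 813 and 1049 CPM in triple-negative cells (0.94 ± 0.11). B2M, the light chain, rose by 0.61 ± 0.08, the peptide transporter TAP1 by 0.80 ± 0.10 and the immunoproteasome subunit PSMB9 by 0.79 ± 0.08. All 5 guanylate-binding proteins rose (median 1.02), with GBP4 at 2.08 ± 0.11. Of 9 class II genes 4 rose, among them CD74, the invariant chain, by 2.32 ± 0.28.

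Of the checkpoint genes 4 of 8 rose in SCC25 and 3 of 6 did in depth-matched cells. IDO1, which breaks down tryptophan, rose by 3.20 ± 0.35 and CD274 (PD-L1) by 1.60 ± 0.40. CD274 was near the floor, at 1.59, 0.875, 1.74 and 0.512 CPM in triple-positive and 0.529, 0.333, 0 and 0.141 CPM in triple-negative cells. Its difference therefore rests on few counts. Among 10 cell death genes 6 rose. TNFSF10, the death ligand TRAIL, was at 332, 828, 376 and 651 CPM in triple-positive and 97.1, 447, 63.1 and 239 CPM in triple-negative cells (1.55 ± 0.13), a gain in each sample with overlap across samples.

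Epithelial genes also moved. In SCC25, 10 of 11 basal squamous genes rose, both in all cells (median 0.49) and in depth-matched cells (median 0.61). KRT14, the keratin of basal cells, was at 3777, 5515, 2460 and 3990 CPM in triple-positive and 1725, 2955, 719 and 1948 CPM in triple-negative cells (1.21 ± 0.10). KRT16, a keratin of stressed epithelium, rose by 1.40 ± 0.08, and the transglutaminase TGM1 by 1.78 ± 0.16. Both belong to the squamous differentiation list, which was split. Only 8 of its 17 tested genes were higher in triple-positive cells of every SCC25 sample, against 9 of 11 basal genes. The fibroblast marker LUM rose too, by 1.10 ± 0.11, while DCN and COL1A2 did not pass (0.79 ± 0.31, adjusted p = 0.064, and -0.02 ± 0.33, adjusted p = 0.98). Whether the cells with LUM had a part in the class differences was not tested.

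The decreases in SCC25 were smaller than the rises. TRIB3, a pseudokinase of the integrated stress response, was at 46.0, 29.2, 20.7 and 31.3 CPM in triple-positive and 87.1, 72.3, 56.2 and 49.7 CPM in triple-negative cells, and it fell in every sample without overlap (-1.04 ± 0.09). ODC1, the first enzyme of polyamine synthesis, fell (-0.94 ± 0.10), as did CENPV (-0.90 ± 0.09). CHAC1 and ATF4 of the same stress response also fell (-0.67 ± 0.15 and -0.31 ± 0.08), yet the chaperone HSPA5 rose by 0.51 ± 0.08, so 3 of 12 stress genes rose and 4 fell.

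Proliferation genes were called differently in all cells and in depth-matched cells. Of 18 genes of G2 and mitosis, 10 rose in SCC25 when all cells were used (median 0.27), but none rose and 8 fell in depth-matched cells (median -0.30). TOP2A went from 0.49 ± 0.14 to -0.069 ± 0.18. The median UMI count was higher in triple-positive cells, and no direction is given for these genes. S-phase genes had 0 of 14 calls in all cells and 2 decreases in depth-matched cells.

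The levels of the classes did not overlap at all, every triple-positive sample above every triple-negative sample, for 586 of the 15633 genes tested in SCC25 (3.75%). This was so for 19 of the 42 tested antiviral effectors, 4 of the 5 ISG15 conjugation genes and 7 of the 17 HLA class I genes.

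Whether the class difference depended on treatment was tested in SCC25 as cetuximab minus PBS. Of the 15633 genes, 18 (0.115%) were called, 12 larger (0.0768%) and 6 smaller (0.0384%) with cetuximab. CCL5 was the only gene of the T-cell chemokine list among them: its triple-positive level was 61.9, 60.0, 184 and 106 CPM and its triple-negative level 7.53, 6.60, 3.41 and 5.21 CPM, so the log2 difference was 1.54 larger with cetuximab. Of the 42 antiviral effectors none was called. Only 39 triple-negative cells remained in cetuximab replicate 1.

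In SCC1 the same contrast rested on 23 triple-negative cells with 908488 UMIs, all from the PBS samples, since neither cetuximab sample had a triple-negative cell. It called 579 of 15633 genes (3.7%), 333 higher (2.13%) and 246 lower (1.57%), with a median over all genes of 0.17 on the log2 scale. Of the 42 antiviral effectors 27 rose and none fell (median 1.25), and of 17 HLA class I genes 13 rose. MX1 rose by 3.16 ± 0.26. OASL and CCL5 had no UMI in the 23 cells and were at least 5.35-fold and 3.52-fold higher in triple-positive cells, taking 3 counts over the whole group as the floor. The EGFR ligand EREG fell (-3.09 ± 0.30), as did the activin antagonist FST (-2.02 ± 0.22). SCC25 minus SCC1 in this contrast called 199 genes (1.27%), 103 with a larger (0.659%) and 96 with a smaller value (0.614%) in SCC25. With 190 SCC1 calls in depth-matched cells and 48 without PBS replicate 2, the SCC1 count rested on few cells. The split between higher and lower genes also moved with scaling, from 333 and 246 to 260 and 325 with DESeq2 size factors.

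A comparison that used every SCC1 sample was therefore chosen and added once the values were known. The 20% of each sample's cells with the most IFIT1, IFIT2 and IFIT3 UMIs after thinning (IFIT-high) were set against the 20% with the fewest (IFIT-low), with the same test over 14205 genes. In SCC1 this called 3118 genes (22%), 1525 higher (10.7%) and 1593 lower (11.2%), and in SCC25 4954 (34.9%), 2577 higher (18.1%) and 2377 lower (16.7%). The IFIT-high cells were shallower in every sample, with medians of 45377 against 57450 UMIs in SCC1 cetuximab replicate 2, for example. That is the opposite of the depth difference between the triple classes. With the 20% taken within 5 classes of depth, 19.5% of genes were called in SCC1.

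All 42 antiviral effectors rose in IFIT-high SCC1 cells, with a median of 1.04. RSAD2 was at 177, 75.5, 556 and 386 CPM in IFIT-high and 7.69, 4.001, 87.7 and 25.4 CPM in IFIT-low cells (3.63 ± 0.26). MX1 was at 377, 289, 585 and 623 CPM against 140, 103, 330 and 285 CPM (1.13 ± 0.10). For MX1 the highest IFIT-low level, 330 CPM in a cetuximab sample, lay above the IFIT-high level of PBS replicate 2. OASL rose by 3.88 ± 0.36, ISG15 by 1.25 ± 0.12 and MX2 by 1.68 ± 0.13. Non-overlapping levels were found for 633 of 14205 genes in SCC1 (4.46%), and for 7 of the 42 effectors.

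The other interferon lists moved in the same direction in IFIT-high SCC1 cells. All 17 HLA class I genes rose (median 0.64), as did all 5 guanylate-binding proteins (median 1.43), 9 of 13 sensors, 6 of 7 JAK-STAT genes and 5 of 6 interferon regulatory factors. CXCL10 was at 79.3, 45.9, 1102 and 297 CPM in IFIT-high and 1.11, 0.923, 70.5 and 4.89 CPM in IFIT-low cells (4.93 ± 0.33). CXCL11 rose by 4.29 ± 0.33 and CCL5 by 3.54 ± 0.34. TNFSF10 rose by 2.33 ± 0.17 and TNFSF13B (BAFF, a B-cell survival factor) by 3.27, and of 6 receptor genes only IL10RB rose, by 0.43 ± 0.10.

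Other genes fell in IFIT-high SCC1 cells. EREG was at 5.84, 6.97, 0.683 and 3.65 CPM in IFIT-high and 14.3, 23.5, 5.18 and 10.8 CPM in IFIT-low cells (-1.75 ± 0.17), and AREG, a second EGFR ligand, fell by 1.07 ± 0.14. Of 19 EGFR and MAPK output genes 7 fell and 1 rose. FST fell by 1.60 ± 0.17 and CENPV by 1.30 ± 0.20. Of 14 S-phase genes 12 fell (median -0.67), and 5 still fell with the 20% taken within classes of depth (median -0.49), whereas no gene of G2 and mitosis passed the test over both treatments. The treatments differed for these genes: CDK1, the mitotic kinase, was at 144 and 168 CPM in IFIT-high against 128 and 130 CPM in IFIT-low cells with PBS, and at 22.4 and 64.4 against 94.3 and 99.0 CPM with cetuximab.

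**Figure D4:**
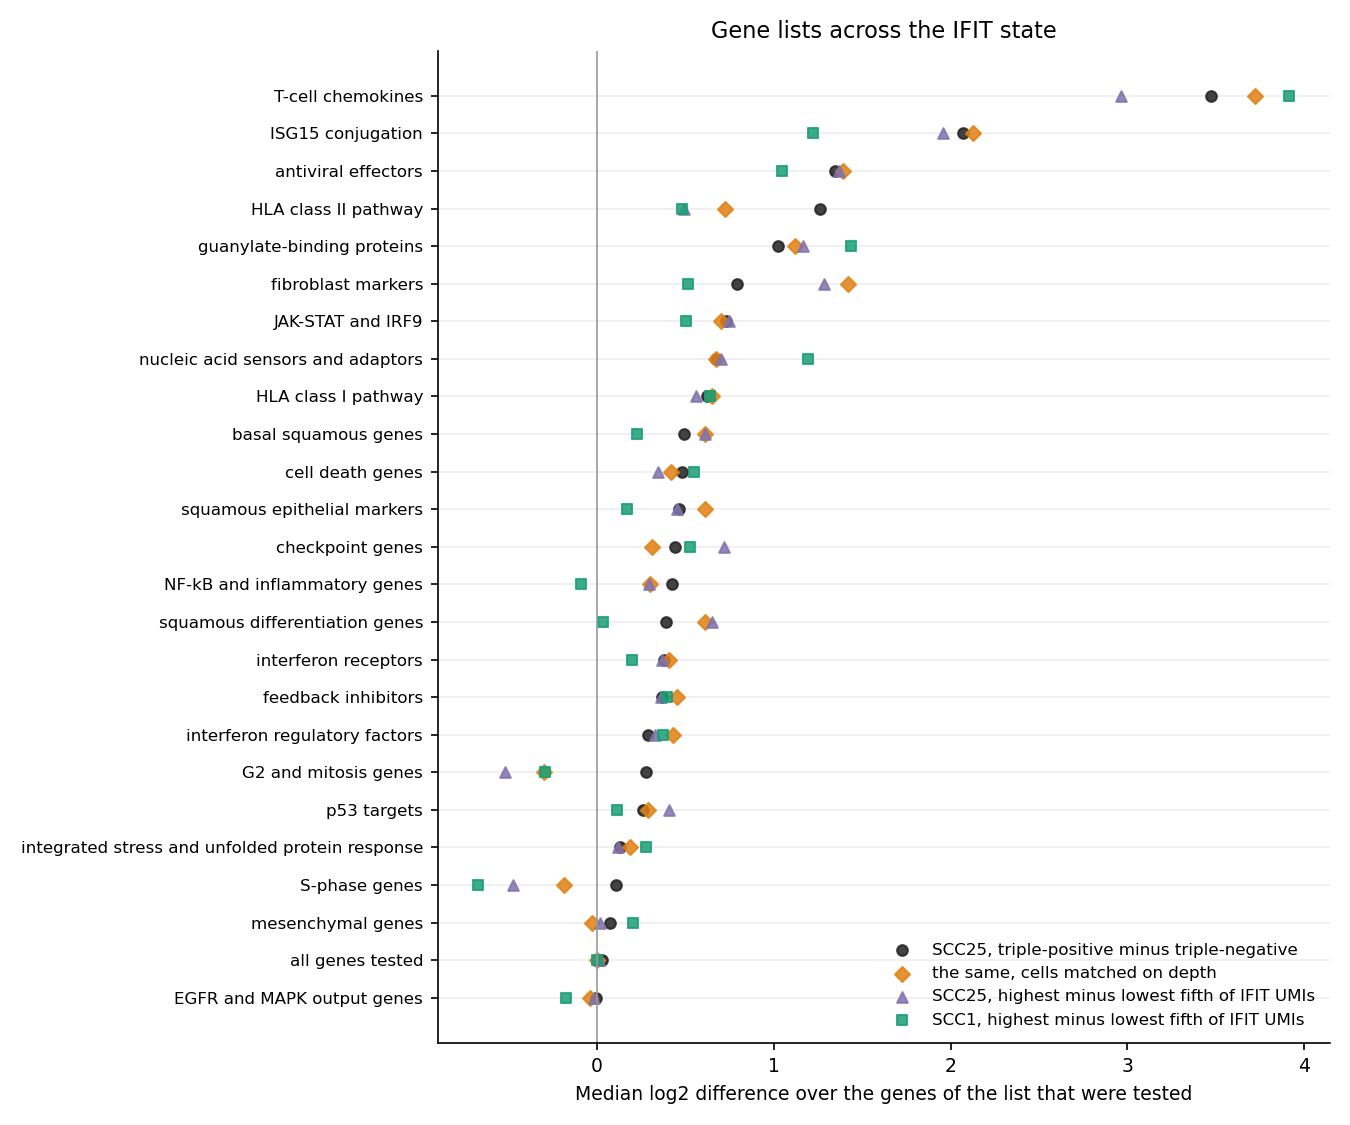
Median log2 difference over the tested genes of each list (horizontal axis) for SCC25 triple-positive against triple-negative cells, the same in depth-matched cells, and IFIT-high against IFIT-low cells in SCC25 and SCC1, with ligands left out. T-cell chemokines lie farthest to the right in each comparison (2.96 to 3.91), and the G2 and mitosis median in SCC25 changes sign between all cells (0.27) and depth-matched cells (-0.30).

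Both lines can be compared in the IFIT-high against IFIT-low contrast, but the groups did not lie at the same IFIT level. IFIT-low cells averaged 1.28, 0.518, 10.1 and 5.59 thinned UMIs of the 3 genes in SCC1 (PBS replicates 1 and 2, then cetuximab), and 0, 0, 0.440 and 0 in SCC25. IFIT-high cells averaged 24.7, 16.4, 77.0 and 60.0 in SCC1, and 7.18, 13.0, 21.0 and 21.7 in SCC25. The part of these levels in the differences between lines or treatments was not tested. Of the 1525 genes higher in SCC1 and the 2577 higher in SCC25, 807 were shared (52.9 and 31.3% of each list), and 19 of the SCC1 genes went the opposite way in SCC25. Of the lower genes 903 were shared (56.7 and 38.0%), and 61 of the SCC1 genes went the opposite way in SCC25. A test of the difference between the lines called 655 genes (4.61%), 447 with a larger (3.15%) and 208 with a smaller value (1.46%) in SCC25. Among them were 8 of the 42 antiviral effectors and 4 of the 5 ISG15 conjugation genes, all larger in SCC25, while none of the 17 HLA class I genes was called.

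HERC5 differed most among the ISG15 genes, by 1.84 ± 0.29 on the log2 scale: it rose by 3.64 ± 0.22 in SCC25 and by 1.80 ± 0.18 in SCC1. IFI6 and DDX58 had larger differences in SCC25 by 1.14 ± 0.13 and 1.34 ± 0.16. In IFIT-low cells IFI6 was at 787, 376, 1738 and 932 CPM in SCC1 and at 54.9, 44.5, 482 and 112 CPM in SCC25. CXCL11 went the other way, with a smaller difference in SCC25 (-1.60 ± 0.41), and EREG fell by 1.75 ± 0.17 in SCC1 and was at 0.08 ± 0.22 in SCC25 (adjusted p = 0.81), a difference of 1.83 ± 0.28 (adjusted p = 0.0044). HLA-B rose by 0.76 ± 0.08 in SCC1 and 0.82 ± 0.08 in SCC25, and the difference of 0.06 ± 0.11 did not pass (adjusted p = 0.78).

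**Figure D5:**
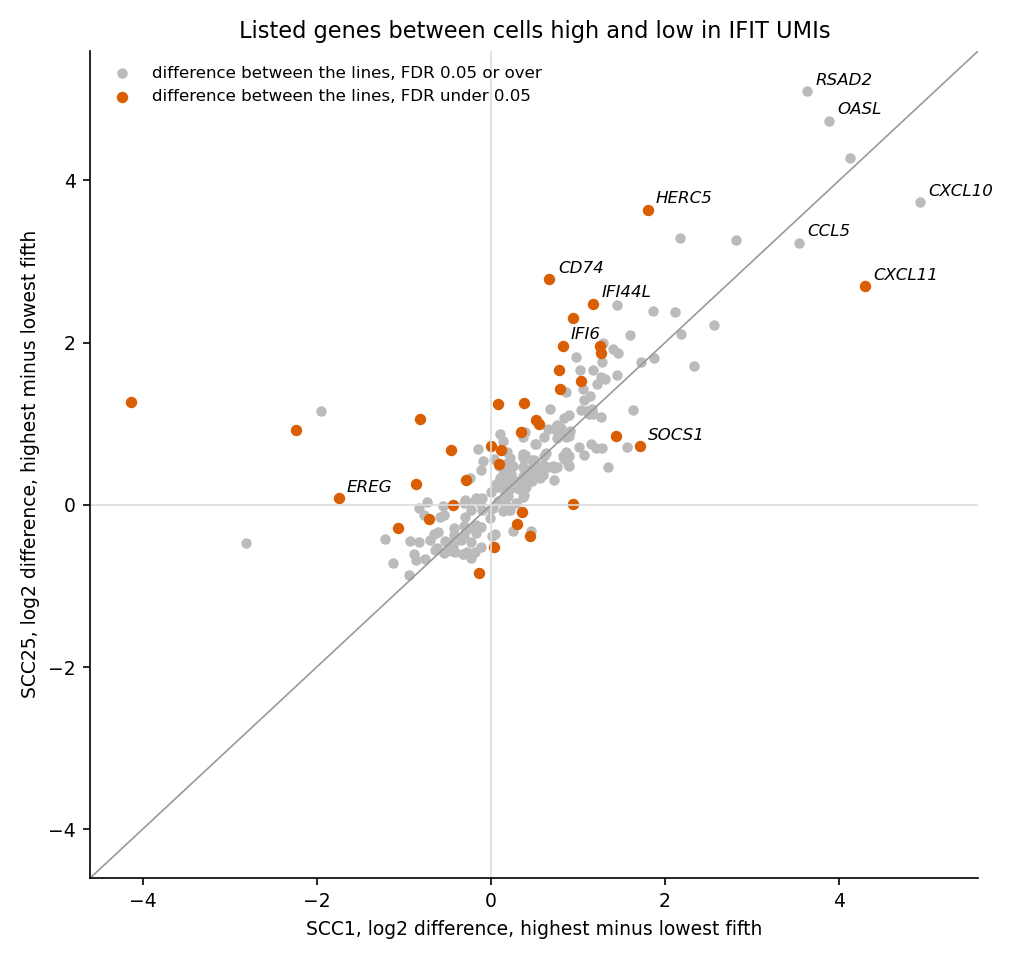
Log2 difference between IFIT-high and IFIT-low cells in SCC1 (horizontal axis) and SCC25 (vertical axis) for 252 listed genes with a mean of 1 CPM or more in both lines. The 37 orange points are genes whose difference between the lines passed an adjusted p of 0.05, and HERC5 (1.80 in SCC1, 3.64 in SCC25) lies above the diagonal.

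The treatments were also compared in how far IFIT-high and IFIT-low cells differed, though the IFIT levels of these cells differed between treatments, as given above. In SCC1, 248 of 14826 genes (1.67%) were called, 38 with a larger (0.256%) and 210 with a smaller value (1.42%) with cetuximab. Of the 42 antiviral effectors 1 was called, and the list median was -0.00. Of 18 genes of G2 and mitosis 17 were called, all with a smaller value (median -1.41), as were 8 of 14 S-phase genes (median -0.75), and 5 of 11 basal squamous genes had a larger value. In SCC25 a single gene, CXCL8, was called (0.00674%). The SCC1 count fell to 17 and 18 without PBS replicates 2 and 1.

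Cells of the same class were then compared between treatments, which asks whether triple-positive cells with cetuximab were like those with PBS. Without a replicate block, 2 of 16277 genes (0.0123%) were called in SCC1 and none in SCC25, where the unadjusted p was under 0.05 for 1031 genes and DESeq2 called 87. In simulated counts this fit called only 8.5% of the genes given a 2-fold change in triple-positive SCC25 cells. The low number of calls therefore does not show that the cells were alike. The pair in SCC1, named after their values were seen, were CD24, a surface glycoprotein, and SULT1E1, an estrogen sulfotransferase. CD24 was at 1.45 and 1.08 CPM in triple-positive PBS cells and 9.94 and 7.77 CPM in triple-positive cetuximab cells (2.77 ± 0.22, adjusted p = 0.0324), and SULT1E1 at 0.878 and 0.475 CPM against 9.51 and 7.68 CPM (3.64 ± 0.32, adjusted p = 0.0337). The treatments did not overlap for either gene, but neither call held when any SCC1 sample was left out.

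With the replicate number as a block, 1603 genes (9.85%) were called within triple-positive SCC1 cells, 900 higher (5.53%) and 703 lower (4.32%) with cetuximab. Within triple-positive SCC25 cells 286 (1.76%) were called, 215 higher (1.32%) and 71 lower (0.436%). In SCC1 these included 28 of 42 antiviral effectors, all higher with cetuximab (median 0.89), and all 18 genes of G2 and mitosis, all lower (median -1.25). RSAD2 was higher by 2.06 ± 0.12 and OASL by 2.19 ± 0.16. In SCC25, 4 effectors were higher and 1 was lower (median 0.64), with OASL lower by 0.92 ± 0.16 and RSAD2 higher by 0.80 ± 0.13. Without the block these genes did not pass (adjusted p = 0.24 and 0.29 for RSAD2 and OASL in SCC1, 0.81 and 0.85 in SCC25). Within triple-negative SCC25 cells the block gave 200 calls of 11578 genes (1.73%), 100 higher and 100 lower with cetuximab (0.864% each), and without it none passed (255 had an unadjusted p under 0.05, and DESeq2 called 1).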

How the data were processed

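The authors deposited whole-number UMI counts per gene and cell, 1 table per cell line, with the sample in each cell's name. Per the labels and the submitters' processing notes these counts came from Cell Ranger with GRCh38, and the version is not given in the sources used here. The tables held 33538 gene rows under 33514 symbols, and the 24 symbols on more than 1 row were summed. No sample column was left unused, and no doublet caller was run.

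UMIs were summed per sample and class of cells and tested with edgeR 4.0.16 in R 4.3.3 (quasi-likelihood F-test, TMM, filterByExpr, Benjamini-Hochberg at 0.05). The class fit held 14 sums with the sample as a block and 4 residual degrees of freedom, and the IFIT-high fit held 16 sums with 6. IFIT1, IFIT2 and IFIT3 were left out of tests and library sizes. Treatment within a class was fitted without a replicate block, as designed. Replicates of equal number deviated together (Pearson r over 15633 genes of 0.474 in SCC1 and 0.526 in SCC25), a hint from the data that numbers pair the samples, so blocked counts are given beside those results. DESeq2 1.42.0 was an alternative. The fits and the code were tested on simulated data.

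Shares were compared by exact permutation within lines (SciPy 1.17.1), with 95% Clopper-Pearson intervals per sample. Other tools were Python 3.11.15, NumPy 2.4.6, pandas 2.3.3 and Matplotlib 3.10.9.

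By rule, the 10 largest rises and 5 largest falls per line with a mean of 10 CPM or more and 1 sign in every sample could be named, along with 5 in each direction for differences and any of 314 entries in 28 gene lists. The members, rule and lists were chosen with earlier results of these data known. Levels are in CPM and compare 1 gene between classes, not genes with each other. No fit of class by treatment, or of treatment within triple-negative cells, could be made in SCC1, where cetuximab left no triple-negative cell. Values of some listed genes are not reported here.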

Additional observations from a re-analysis of the deposited data

Results flagged for a closer look

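Effects of the state that differed between lines were flagged, from a test of the difference itself. For the triple classes, 199 genes were called (SCC25 minus SCC1). They rest on 23 triple-negative SCC1 cells and are not named.

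For IFIT-high against IFIT-low cells, which lay at unlike IFIT levels in the lines, 655 genes differed between the lines. The log2 difference was larger in SCC25 by 5.08 for CERS4 (a ceramide synthase), 4.14 for KLK5 and 3.85 for KLK10 (kallikrein proteases), 3.08 for GAL (the neuropeptide galanin) and 2.61 for KRT6B (a keratin of activated epithelium). All 5 had few counts in SCC1, at 0 to 7.04 CPM in any sample of IFIT-high or IFIT-low cells, and met the minimum level through SCC25, so these sizes rest on low SCC1 values. It was smaller in SCC25, with values of -1.60 for CXCL11, -1.54 for NEXN, -1.51 for PRSS23, -1.36 for ALPP and -1.33 for DKK1, a Wnt antagonist.

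Effects that differed with treatment were flagged in the same way. In SCC25 the class difference changed with cetuximab for 18 genes. It was larger by 1.75 for FOLR3, 1.54 for CCL5, 1.22 for SGO2, 1.01 for KRT6B and 0.91 for KRT81, and it changed by -0.98 for EPPK1 and -0.85 for B4GALT5.

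In SCC1 the difference between IFIT-high and IFIT-low cells changed with cetuximab for 248 genes (1.67% of 14826), 38 larger and 210 smaller. Larger values were found for KRT16 (1.94), CXCL1 (1.35), NPPB (1.32), LAMB3 (1.15) and FGF5 (1.15). Smaller values were found for S100P (-2.11), and for the mitotic genes UBE2C (-2.10), CDCA2 (-2.02), FAM83D (-1.76) and AURKB (-1.74). Of 18 listed genes of G2 and mitosis, 17 were called and all were smaller with cetuximab (median -1.41). The gap in depth between IFIT-high and IFIT-low SCC1 cells was wider with cetuximab, as given above, and its part in these values was not tested. In SCC25, 1 gene was called, CXCL8 (-1.94).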

How the results depend on the processing

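The share of triple-positive cells was higher with cetuximab under every setting tried: 23.3 points without thinning, 31.9 at 10000 UMIs, 33.1 with 2 or more UMIs of each gene, 25.2 with 2 or more of the 3 genes, and 27.0 to 34.5 with any sample left out. The replicate block, an exact sign-flip test over pairs of equal number, gave p = 0.125, the smallest it allows. Leaving out a SCC25 sample raised p to 0.111 except for cetuximab replicate 2.

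Ranges with a sample left out are over samples of the line tested. For the class contrast in SCC25, the 3245 calls became 1701 with DESeq2, 43 with no replicate block (no sample term), and 2108 to 3187 with a sample left out, with 2108 without PBS replicate 1. In SCC1 the 579 calls became 1030 with DESeq2 (221 higher, 809 lower), 1057 without a filter on low counts, 4 with no replicate block, 190 in depth-matched cells, and 296 or 48 without PBS replicate 1 or 2. DESeq2 moved the median log2 difference over all genes in SCC1 from 0.17 to -0.14. SCC25 minus SCC1 called 199 genes, against 536 with DESeq2, 504 without the filter, 0 with no replicate block (967 at an unadjusted p under 0.05), 72 in depth-matched cells, 414 with classes from thinned counts, 357 with 2 or more UMIs of each gene, 85 against all other cells, and 7 to 378 with a sample left out (76 and 7 without SCC1 PBS replicates 1 and 2, 378 without SCC25 cetuximab replicate 1). Class by treatment in SCC25 called 18 genes, 0 with DESeq2 (68 at an unadjusted p under 0.05), 8 in depth-matched cells, and 3 to 67 with a sample left out (5 and 3 without PBS replicates 1 and 2, 67 without cetuximab replicate 2).

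For IFIT-high against IFIT-low cells (added after seeing the data), the 3118 SCC1 calls became 9 with no replicate block and 1335 to 2994 with a sample left out (1882 without cetuximab replicate 1, 1335 without cetuximab replicate 2). The 4954 SCC25 calls became 90 with no replicate block and 3146 to 4560 with a sample left out (3146 without cetuximab replicate 2). The 655 differences between lines became 1021 without the filter, 0 with no replicate block (590 at an unadjusted p under 0.05) and 260 to 607 with a sample left out (260, 293, 288, 387 and 435 without SCC25 cetuximab replicate 2, SCC25 PBS replicate 2, SCC1 cetuximab replicate 2 and SCC1 PBS replicates 2 and 1). By treatment, SCC1 went from 248 to 122 with classes of depth and to 17 to 278 with a SCC1 sample left out (17 and 18 without PBS replicates 2 and 1, 79 without cetuximab replicate 1), and it was 391 and 401 without SCC25 cetuximab replicates 1 and 2, which share the fit. SCC25 went from 1 to 5 with DESeq2, 0 with classes of depth and 0 to 109 with a SCC25 sample left out, most without cetuximab replicate 2.

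Treatment within triple-positive SCC1 cells called 2 genes, 294 with DESeq2, 438 without the filter, 1603 with the replicate block and 0 to 0 with a sample left out. In SCC25 it called 0 genes, 87 with DESeq2, 146 without the filter, 286 with the replicate block, 1 (CPA4) with classes from thinned counts, and 0 to 1 with a sample left out (CCL2, without cetuximab replicate 2). Within triple-negative SCC25 cells the 0 calls became 1 with DESeq2, 49 without the filter, 200 with the replicate block and 0 to 25 with a sample left out (25 and 8 without cetuximab replicates 1 and 2).

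TOP2A, at 0.49 in SCC25, was at -0.069 in depth-matched cells, -0.52 with classes from thinned counts and -0.089 against all other cells. Of the checks of named genes, 1628 kept direction and side of the threshold, 273 kept direction only and 3, all TOP2A, reversed. The cause of these changes was not tested.

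The precision is limited by 2 samples per group and by the 23 triple-negative SCC1 cells. Triple-positive cells had higher median UMI counts than triple-negative cells in all 6 samples with both, and IFIT-high cells had lower ones than IFIT-low cells in all 8.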

Other observations

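Inflammatory genes were compared between the lines in IFIT-high against IFIT-low cells. For this and the next lists, the shares over all genes tested were 18.1% higher and 16.7% lower in SCC25, and 10.7% higher and 11.2% lower in SCC1. Of 19 NF-kB and inflammatory genes 8 rose and none fell in SCC25 (median 0.29 on the log2 scale), while 1 rose and 5 fell in SCC1 (median -0.09). The fitted difference between the lines called 3 of them, CCL20, IL1A and LTB, all with a larger value in SCC25, where 3.15% of all genes were so called. IL1A, an alarmin cytokine of epithelium, rose by 0.67 ± 0.18 (SE) in SCC25 and fell by 0.46 ± 0.14 in SCC1 (lower in all 4 samples), a difference of 1.13 ± 0.23 (edgeR adjusted p = 0.017). CCL20 was at 0.291 to 6.77 CPM in SCC1 and not of 1 sign there, at 0.447 CPM in IFIT-high against 0.291 CPM in IFIT-low cells of cetuximab replicate 2.

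Of 15 squamous differentiation genes 10 rose and 1 fell in SCC25, and 3 rose and 5 fell in SCC1, with 3 called larger in SCC25 by the difference. Of 10 p53 targets 6 rose in SCC25 and 4 in SCC1, and none fell. Between the lines 4.61% of all genes differed, and of the p53 targets 1 did, too few to set the list apart. That gene, CDKN1A (the cell cycle inhibitor p21), rose by 0.68 ± 0.07 in SCC25 and was at 0.12 ± 0.07 in SCC1 (edgeR adjusted p = 0.27), a difference of 0.56 ± 0.10 (edgeR adjusted p = 0.010).

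MX1, MX2 and TLR3, all interferon-stimulated genes, had almost no UMIs in SCC25, and neither had some of their neighbours. These genes were chosen after their values were seen. MX1 had 92672 UMIs in SCC1, 908 in SCC6 and 2 in SCC25, and MX2 had 12645, 169 and 0, out of 290296670, 369155615 and 385808013 UMIs. On the same stretch of chromosome 21, within 2 Mb of MX1, BACE2 had 2437, 5801 and 1 UMIs, RIPK4 had 4297, 4357 and 0, PRDM15 had 362, 511 and 1, C2CD2 had 937, 1426 and 1, and ZBTB21 had 852, 982 and 0. On either side of these genes, SH3BGR had 478, 281 and 464 UMIs and SLC37A1 had 1362, 2718 and 1052, so both were read in all 3 lines.

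TLR3, an RNA sensor on chromosome 4, had 1518 UMIs in SCC1, 84 in SCC6 and 0 in SCC25. Its neighbours SORBS2 (7322, 625 and 7 UMIs) and FAT1 (16526, 9535 and 1) were also close to 0 in SCC25, while UFSP2 had 4782, 5853 and 13092. A count of 0 in SCC25 allows up to 0.00778 CPM, from counting error alone. No DNA was measured here, and the cause was not tested.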
